A study of Chlamydomonas reinhardtii with 45 samples.

Results

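The comparison described here set 100 mM NaCl against 300 mM mannitol after 60 min of treatment in Chlamydomonas reinhardtii, a unicellular green alga that swims with a pair of cilia. It rests on 6 of the 45 RNA-seq libraries of the series, chosen by their labels alone, which were 3 of NaCl 60 min and 3 of mannitol 60 min. All cells were of the wild-type strain CC-4533, grown in liquid TAP medium under low light, and carried no transgene. Untreated cells of the same strain at 0 h (control 0 h, 5 libraries) and the NaCl and mannitol groups at 15 and 30 min and at 4, 6 and 24 h (3 libraries each) serve below only to place the 60 min values. Per the study's methods the replicates came from different days with separately prepared media, and the times of 1 replicate were taken from the same flask, so that values at different times are not fully independent. The p-values below measure the spread between these 3 cultures per osmolyte.

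Both treatments draw water out of the cell, but mannitol is an uncharged sugar alcohol while NaCl also brings sodium and chloride ions. Chlamydomonas is a freshwater alga that is known to build up glycerol and to shorten or lose its cilia when the medium turns hyperosmotic. The direct comparison asks which transcripts had different levels under the ionic and the non-ionic treatment at a matched time. The concentrations differ and only 1 concentration of each osmolyte was measured, so that the comparison is of these treatments and not of equal doses.

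Values are TPM, the share of a library that a transcript takes after correction for its length, so that all libraries have the same total. The number of reads is not known from these values, so no counting error can be given and the precision is the spread between the 3 libraries of a group. Of 19526 transcripts from 17737 genes, 13651 were tested, namely those that reached a TPM of 1 in 3 or more libraries of the series. The 6 libraries held between 13409 and 14938 transcripts above 0. The transcript g15293.t1, which has no gene name, took 41.1% ± 11 (SD, n = 3) of the TPM in NaCl and 28.4% ± 9.94 (SD, n = 3) in mannitol, which lowers the TPM of all others. Results are therefore given as deposited and, where it matters, after median-ratio scaling. This divides a library by a factor, the median over 10384 transcripts (those never at 0) of its TPM relative to their geometric mean over the series.

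The 60 min libraries of each osmolyte were close to each other, but those of mannitol lay nearer to NaCl libraries of an earlier time than to mannitol libraries of any other time. Across the 13651 transcripts, correlations of log2(TPM + 1) ran from 0.973 to 0.985 among the NaCl libraries, from 0.953 to 0.968 among the mannitol libraries, and from 0.866 to 0.909 between the osmolytes. The mean profile of mannitol 60 min had its highest correlation with NaCl 30 min (0.969), followed by NaCl 15 min (0.929) and mannitol 30 min (0.905). Each of the 3 mannitol 60 min libraries had NaCl 30 min as its nearest other group, also after scaling. The mean profile of NaCl 60 min was nearest to NaCl 4 h (0.945) and NaCl 30 min (0.943), and its correlation with mannitol 4 h was 0.911. These correlations are across transcripts, which are not independent replicates, and they share the gene set and its overall range of levels. The labels were kept as given. Whether a library carries the osmolyte and time of its label was not tested, and the series holds no marked or deleted gene that would show it.

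**Figure D1:**
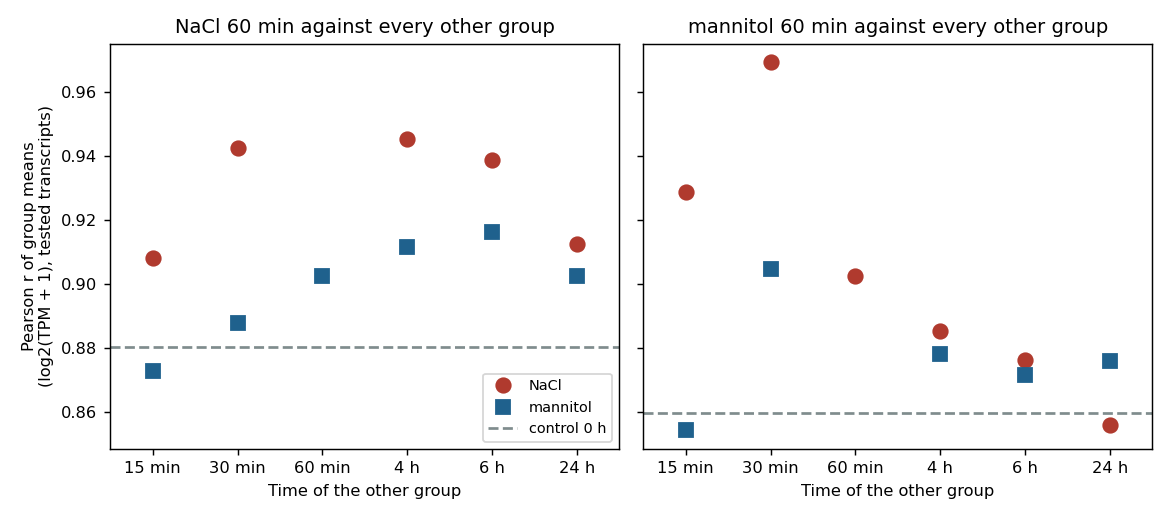
Pearson correlation of the mean log2(TPM + 1) of NaCl 60 min (left) and mannitol 60 min (right) with that of every other group, by time of the other group, over 13651 transcripts; the dashed line is control 0 h. On the right the highest point is NaCl 30 min at 0.969, above mannitol 30 min at 0.905, while on the left NaCl 4 h (0.945) lies above mannitol 4 h (0.911).

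At 60 min many transcripts differed between the osmolytes, and most of those with large changes were lower in NaCl. A transcript was called at a Benjamini-Hochberg adjusted p under 0.01 in limma and a log2 fold change over 2, that is 4-fold, computed on log2(TPM + 1), where changes of transcripts with low TPM come out too small. By this rule 598 transcripts were called (4.38% of those tested), of which 114 (0.835%) were higher and 484 (3.55%) were lower in NaCl than in mannitol. After scaling 698 (5.11%) were called, 142 higher and 556 lower. All 598 were also called after scaling with the same sign, and in all 598 the 3 NaCl libraries and the 3 mannitol libraries did not overlap on either scale. The fold change set the number of calls, since every transcript past it had an adjusted p of 0.0026 or less. Without the fold change, 1074 transcripts (7.87%) were higher and 2061 (15.1%) lower in NaCl at an adjusted p under 0.01. Among all tested transcripts, non-overlapping libraries were found for 2488 (18.2%) with NaCl above and 3915 (28.7%) with NaCl below.

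The split between the directions depended on how the scale was set. The median log2 fold change of all tested transcripts was -0.13, and -0.12 after scaling. Once g15293.t1 and also g15294.t1 were removed and TPM set anew, 287 transcripts were called higher and 472 lower, so that the higher share rose from 19.1% to 37.8% of the calls. The number called higher was 74 without mannitol replicate 3, and 207 without mannitol replicate 1 after scaling.

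**Figure D2:**
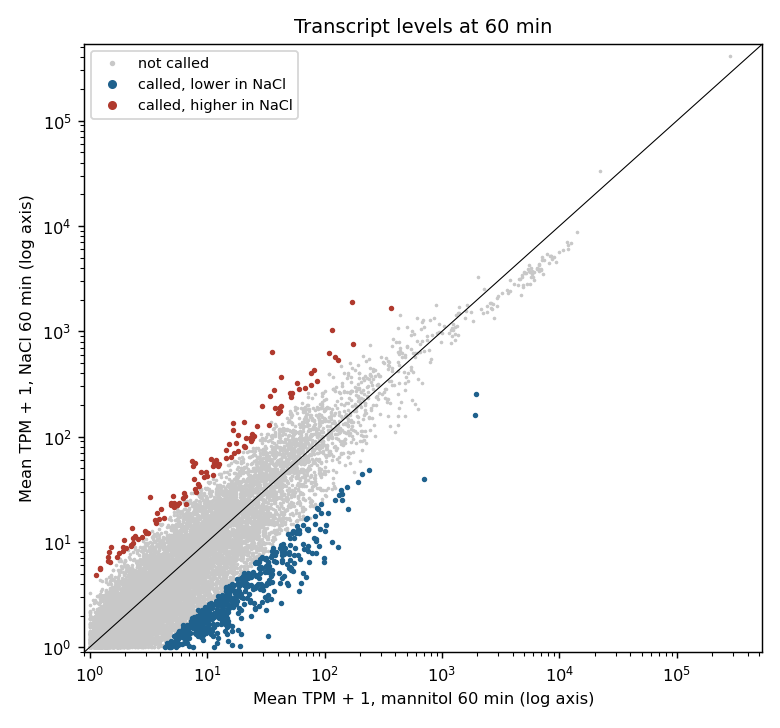
Mean TPM + 1 of the 13651 tested transcripts in mannitol 60 min (x, log axis) and NaCl 60 min (y, log axis), each the mean of 3 libraries; the line marks equal levels. The 484 called transcripts lower in NaCl lie below the line and the 114 called transcripts higher in NaCl lie above it.

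The largest differences with NaCl on the low side were transcripts that were abundant in mannitol and near or below the untreated level in NaCl. The largest was g16717, with 0.300, 0.326 and 0.195 TPM in NaCl, 24.0, 29.3 and 42.8 TPM in mannitol and 0 to 1.28 TPM in control 0 h. Its log2 fold change was -4.66 ± 0.30 (SE, adjusted p = 3.87e-09). The NaCl libraries lay within the range of the untreated ones, and all mannitol libraries were far above both. Such placements against control 0 h are in TPM as deposited, here and below, and scaling shifts them. Over all tested transcripts the median log2 fold change from control 0 h was -0.57 in NaCl and -0.55 in mannitol. After scaling these medians were -0.09 and -0.10.

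The transcript g5380 had 34.1, 34.2 and 47.7 TPM in NaCl and 688, 613 and 816 TPM in mannitol, against 59.5 to 80.4 TPM in control 0 h. In TPM as deposited NaCl was below and mannitol above every untreated library. The log2 fold change was -4.16 ± 0.26 (SE, adjusted p = 3.87e-09). Cre03.g152600 had 0.0968 TPM in 1 NaCl library and was listed at 0 in the other two, while mannitol had 12.4, 23.8 and 17.8 TPM, a log2 fold change of -4.16 ± 0.31 (SE). Cre02.g145850 had 2.11, 1.97 and 3.23 TPM in NaCl and 44.8, 84.4 and 48.5 TPM in mannitol, and g11602 changed by -4.02 ± 0.32 (SE). The study's annotation gives no role for these 5 transcripts.

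A pair of unannotated transcripts, picked after their values were seen, reached the highest levels of all those called lower in NaCl. Cre01.g053000 stood at 2.95 to 9.25 TPM in control 0 h, at 232, 232 and 293 TPM in NaCl and at 1361, 1774 and 2753 TPM in mannitol. It was therefore far above the untreated libraries in both osmolytes, and lower in NaCl than in mannitol by a log2 fold change of -2.90 ± 0.30 (SE, adjusted p = 5.60e-07). Cre07.g355850 had 137, 143 and 199.9 TPM in NaCl, 1586, 1937 and 2180 TPM in mannitol and 43.9 to 116 TPM in control 0 h.

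In TPM as deposited, 3 of the 5 largest differences with NaCl on the high side had every mannitol library below all untreated ones. Their NaCl libraries overlapped the untreated ones. Cre02.g094250 had 524, 607 and 754 TPM in NaCl and 42.8, 35.5 and 26.2 TPM in mannitol, against 336 to 705 TPM in control 0 h. Its log2 fold change was 4.15 ± 0.27 (SE, adjusted p = 3.87e-09). Mannitol was below every untreated library, and 1 NaCl library was above all of them. The log2 fold change of NaCl from control 0 h depended on the scale. It was 0.34 (adjusted p = 0.297 in limma) as deposited and 1.08 (adjusted p = 0.0023) after scaling. That of mannitol was -3.80 and -3.12.

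Cre06.g282800 had 1638, 2415 and 1652 TPM in NaCl and 201, 206 and 108 TPM in mannitol, against 1135 to 3441 TPM in control 0 h. Cre07.g353450 had 859, 1263 and 928 TPM in NaCl and 123, 151 and 70.2 TPM in mannitol, against 552 to 1227 TPM in control 0 h. Mannitol was again below the untreated range in both. NaCl stayed inside it for Cre06.g282800 and had 1 library above it for Cre07.g353450. The log2 fold changes between the osmolytes were 3.50 ± 0.30 and 3.19 ± 0.30 (SE). For Cre06.g282800 that of NaCl from control 0 h was -0.19 as deposited and 0.54 after scaling (adjusted p = 0.616 and 0.0568 in limma). Cre05.g234450 had 57.7, 68.0 and 39.5 TPM in NaCl, above the 5.78 to 26.6 TPM of control 0 h, while mannitol overlapped the untreated libraries. It changed by 3.12 ± 0.55 (SE, adjusted p = 0.0014), the largest SE of the named calls on the high side. Its mannitol libraries ran from 1.14 to 9.88 TPM. The call was lost without NaCl replicate 2 and on log2(TPM + 0.1).

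Of the 598 called transcripts 18 have a name in the study's annotation, 4 of them higher and 14 lower in NaCl. Among all 13651 tested transcripts 397 have such a name, a similar share. The 4 higher ones were a kinase of coenzyme synthesis, a predicted protein, a mitochondrial carrier and a chloroplast protein. The annotated pantothenate kinase Cre13.g591400, of the family that starts coenzyme A synthesis, had 55.3, 68.4 and 48.2 TPM in NaCl and 5.38, 11.8 and 2.1 TPM in mannitol, and both osmolytes overlapped the 11.3 to 55.2 TPM of control 0 h. CGL78 (Cre12.g490500), annotated as a predicted protein, had 206, 271 and 343 TPM in NaCl and 43.7, 31.3 and 33.7 TPM in mannitol. Their log2 fold changes were 3.19 ± 0.39 and 2.86 ± 0.27 (SE), and in both genes every NaCl library was above every mannitol library.

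OAC (Cre15.g641200), a member of the mitochondrial solute carrier family, had 369, 541 and 295 TPM in NaCl and 75.6, 92.1 and 60.3 TPM in mannitol, a log2 fold change of 2.36 ± 0.28 (SE, adjusted p = 3.49e-06). THF1 (Cre13.g562850), a thylakoid formation protein, had 297, 357 and 366 TPM in NaCl and 125, 79.0 and 50.9 TPM in mannitol, against 167 to 291 TPM in control 0 h. Its NaCl libraries were above and its mannitol libraries below all untreated ones, with a log2 fold change of 2.07 ± 0.30 (SE). THF1 is close to the fold change threshold, and its call was lost with quantile normalization (1.90), in the libraries numbered under 49 alone (1.70) and without mannitol replicate 3 (1.76).

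Ion pumps were among the annotated genes lower in NaCl. NAK1 (Cre06.g263950), annotated as a sodium/potassium-exchanging ATPase, had 3.71, 4.85 and 3.81 TPM in NaCl and 65.3, 76.7 and 51.2 TPM in mannitol, against 13.4 to 25.1 TPM in control 0 h. The 3 groups did not overlap, and the difference between the osmolytes was -3.66 ± 0.28 (SE, adjusted p = 1.99e-08). The P-type ATPase Cre12.g505350, a cation transporter, changed by -2.23 ± 0.32 (SE), with 5.25 to 9.37 TPM in NaCl, 25.5 to 57 TPM in mannitol and 18.2 to 56.6 TPM in control 0 h, and its call was lost without mannitol replicate 2 (-1.90). The sodium/proton antiporter NHX (Cre01.g034150) did not pass the test, at 4.57, 5.09 and 4.32 TPM in NaCl and 6.28, 7.04 and 4.95 TPM in mannitol, with a log2 fold change of -0.31 ± 0.29 (SE, adjusted p = 0.424).

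Transcription factors are proteins that bind DNA to set the output of other genes. Of the 8 tested that were listed from the study's annotation, 3 were called and all 3 were lower in NaCl. Of all tested transcripts 3.55% were called lower and 0.835% higher. AP2 (Cre08.g385350), of a plant family with members that respond to ethylene, had 4.88, 2.81 and 5.59 TPM in NaCl and 24.4, 58.6 and 70.8 TPM in mannitol, against 3.42 to 7.88 TPM in control 0 h. NaCl overlapped the untreated libraries while mannitol was above them, and the log2 fold change between the osmolytes was -3.17 ± 0.36 (SE, adjusted p = 2.35e-06). The MYB-related protein B gene Cre02.g103450 had 1.96, 1.69 and 2.21 TPM in NaCl and 13.2, 20.5 and 15.5 TPM in mannitol. The RWP-RK gene Cre03.g149400, of a family known in plants for nitrate responses, had 1.22, 0.961 and 0.688 TPM in NaCl and 8.95, 12.3 and 8.58 TPM in mannitol. In both genes NaCl was below and mannitol above every untreated library, at log2 fold changes of -2.54 and -2.48.

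The 3 called genes of the nucleolus, where ribosomal RNA is made and modified, showed another shape, with both osmolytes below the untreated level and NaCl far lower. Nucleolin (Cre06.g275100), an abundant nucleolar RNA-binding protein, had 11.5, 13.7 and 15.5 TPM in NaCl, 67.3, 144 and 92.7 TPM in mannitol and 412 to 896 TPM in control 0 h. The 3 groups did not overlap, and the log2 fold change between the osmolytes was -2.75 ± 0.29 (SE, adjusted p = 9.48e-07).

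NAP57 (Cre03.g172950), whose homologue in animals modifies uridines in ribosomal RNA, had 4.39, 5.53 and 9.52 TPM in NaCl and 30.4, 63.0 and 82.2 TPM in mannitol, against 130.4 to 238 TPM in control 0 h. NOP2 (Cre06.g273413), a ribosomal RNA methyltransferase, had 0.485, 0.317 and 0.567 TPM in NaCl and 7.18, 14.6 and 6.87 TPM in mannitol, against 17.6 to 39.5 TPM in control 0 h. Their log2 fold changes between the osmolytes were -2.94 ± 0.35 and -2.79 ± 0.33 (SE), with no overlap among the groups in either gene.

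The genes called lower in NaCl also included 3 for ciliary proteins and 1 for a motor. FAP215 (Cre03.g180450), annotated as a flagellar associated 5′-nucleotidase, had 2.43, 2.52 and 1.07 TPM in NaCl and 24.7, 39.7 and 25.3 TPM in mannitol, a log2 fold change of -3.37 ± 0.31 (SE, adjusted p = 1.82e-07). FAP33 (Cre14.g614850), which carries ankyrin repeats, changed by -2.44 ± 0.30 and FAP56 (Cre03.g171900) by -2.18 ± 0.29 (SE). A myosin heavy chain (Cre13.g563800), part of an actin-based motor, had 1.2, 1.19 and 1.04 TPM in NaCl and 8.68, 10.8 and 6.70 TPM in mannitol. In these 4 genes the NaCl libraries lay below every untreated library. FAP56 and the myosin lost their calls with quantile normalization (-1.87 and -1.80), and FAP56 also without g15293.t1 and g15294.t1 (-1.96). TLP2 (Cre16.g667450), a Tubby-like protein, changed by -3.13 ± 0.47 (SE), with mannitol libraries as far apart as 7.68 and 46.2 TPM, and the protein kinase gene Cre14.g628200 changed by -2.28 ± 0.35 (SE).

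**Figure D3:**
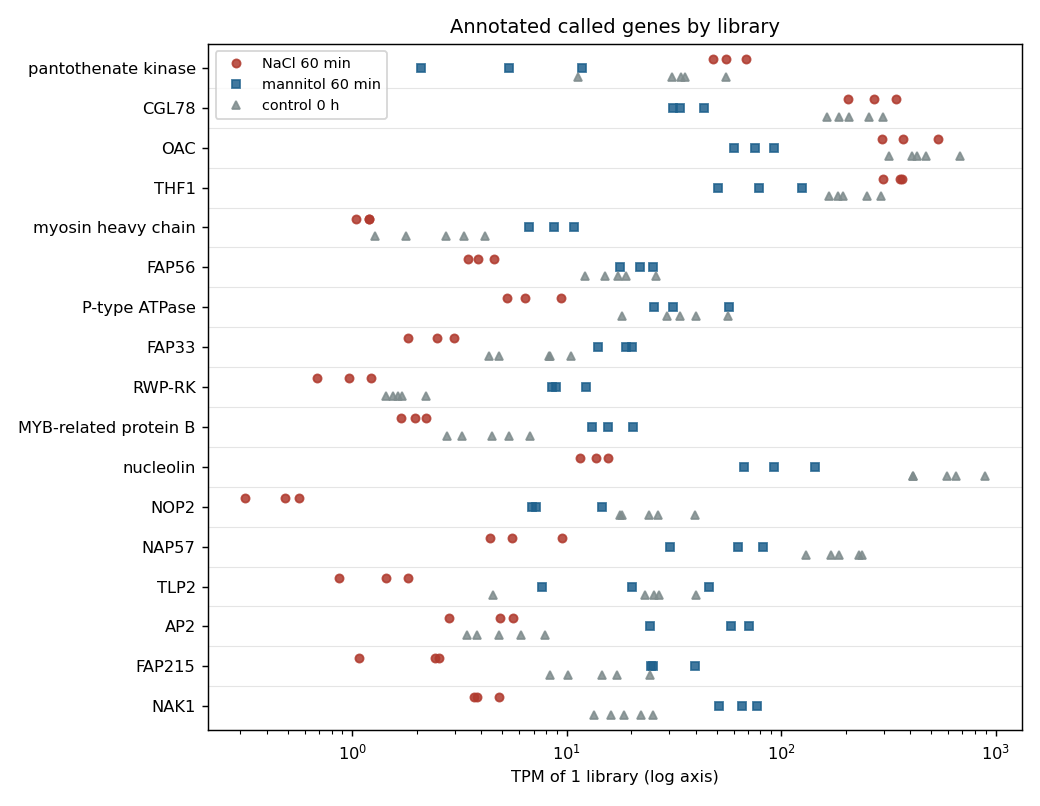
TPM (log axis) of 17 of the 18 annotated called genes in every library of NaCl 60 min (circles), mannitol 60 min (squares) and control 0 h (triangles), ordered by the difference between the osmolytes. In no gene do circles and squares overlap, as is so for all 598 called transcripts from which these genes were taken. For NAK1 the circles run from 3.71 to 4.85 TPM and the squares from 51.2 to 76.7 TPM.

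To see whether the named genes were isolated, 14 lists of genes were made from the descriptions in the study's phosphoproteome and mutant screen tables, so that each list is a sample of its pathway. The shares to read them against are the 7.87% higher and 15.1% lower in NaCl of all transcripts at an adjusted p under 0.01, and the median of -0.13. Of 8 transcription factors 6 were lower and 0 higher in NaCl, 3 of them called, with a median log2 fold change of -1.84 and all 8 below 0. A MYB gene (Cre14.g609350) changed by -1.85 ± 0.31 (SE), and a helix-loop-helix gene (Cre14.g620850) had 30.6, 32.6 and 36.5 TPM in NaCl and 115, 131 and 114 TPM in mannitol (-1.82 ± 0.25, SE).

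Of 8 genes of the nucleolus and ribosome assembly 6 were lower and 0 higher, 3 of them called, with a median of -1.29 and all 8 below 0. Beside the called genes these were a transfer RNA acetyltransferase, PINX1 and a nucleolar protein, at -1.34, -1.23 and -1.11. PINX1 did not pass after scaling (adjusted p = 0.0119 in limma), and 4 of the 8 were lower with quantile normalization and 3 without g15293.t1 and g15294.t1. Of 11 ribosomal proteins and translation factors 1 was higher and 1 lower, with a median of -0.60, which became 0.011 with quantile normalization. The higher one was SUI1 (Cre07.g353550), a factor in the choice of the start codon, at 1.18 ± 0.27 (SE). The ribosomal proteins in this list, RPS25, RPL9 and RPS6, were at -0.73, -0.71 and -0.60 and did not pass the test. The rest of it were translation factors and a transfer RNA synthetase. The list of ribosome assembly and this list thus had different counts, and the difference between the lists was not tested.

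Of 25 ciliary genes 12 were lower and 0 higher, 3 of them called, with a median of -1.0. With quantile normalization 9 were lower, and without g15293.t1 and g15294.t1 6 were lower and 1 was higher. The 12 include IFT74 (Cre01.g027950), a subunit of the particle that carries cargo along the cilium, with 8.86, 10.7 and 12 TPM in NaCl and 25.8, 29.1 and 23.9 TPM in mannitol. The alpha tubulin gene TUA1 (Cre03.g190950), the main building block of the ciliary axoneme and of cytoplasmic microtubules, did not pass the test, at -0.60. Of 18 ion and solute transporters 6 were lower and 1 higher, with a median of -0.64.

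Of 28 protein kinases and phosphatases 7 were lower and 1 higher at an adjusted p under 0.01, 0 of them called, with a median of -0.42, and without g15293.t1 and g15294.t1 3 were lower and 2 higher. The protein kinase gene Cre14.g628200 given above, which was called lower, is not in this list. The largest were a MAP kinase (Cre17.g698550) at -1.63 ± 0.29, a dual-specificity kinase (Cre10.g431950) at -1.54 ± 0.29 and a serine/threonine kinase (Cre09.g403600) at -1.39 ± 0.29 (SE). TOR (Cre07.g347250), the kinase that links nutrients to growth, did not pass the test, with a log2 fold change of 0.89.

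Of 15 genes of membrane traffic 5 were higher and 0 lower, 0 of them called, with a median of 0.80. They include SEC61B (Cre07.g318450), part of the channel that moves proteins into the endoplasmic reticulum, with 253, 271 and 293 TPM in NaCl and 175, 98.7 and 89.5 TPM in mannitol. SSR1 (Cre17.g741000), which sits at the same channel, changed by 1.32 ± 0.31 (SE), and a TBC1 domain protein (Cre17.g737050), a regulator of Rab proteins, by 1.5 ± 0.28 (SE). After scaling 3 of the 15 passed, and SSR1 was not among them (adjusted p = 0.0116 in limma).

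Of 20 transcripts of photosynthesis and the chloroplast 4 were higher and 0 lower, with a median of 0.32. Beside THF1 these were subunit H of magnesium chelatase (Cre07.g325500), which makes a chlorophyll precursor, at 1.76 ± 0.30, TEF5 (Cre09.g411200) at 1.5 ± 0.30 and LHCB4 (Cre17.g720250), a minor light-harvesting protein of photosystem II, at 1.01. In all 4 genes every NaCl library was above every mannitol library.

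The other 6 lists had few members past the test. Of 12 genes of starch and central carbon 2 were higher, the branching enzyme SBE (Cre10.g444700) at 1.3 ± 0.28 and the pyruvate kinase PYK2 at 1.13 ± 0.28 (SE). Of 8 chaperone and redox genes 2 were higher, a thioredoxin peroxidase at 1.60 ± 0.33 and a thioredoxin at 1.19 ± 0.30 (SE). Of 10 genes of nitrogen, sulfur and amino acids 2 were higher and 1 lower, and of 13 lipid and sterol genes 1 was lower, an oxysterol-binding protein at -1.20 ± 0.30 (SE).

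Of 14 cell cycle and replication genes 1 was higher, the cyclin-dependent kinase CDKB1 (Cre08.g372550) at 1.68 ± 0.32, and 2 were lower, the replicative helicase subunit MCM4 at -1.27 ± 0.35 and the ribonucleotide reductase subunit RIR1 at -1.07 ± 0.29 (SE). MCM4 did not pass after scaling (adjusted p = 0.0134 in limma), and 0 cell cycle genes were lower at an adjusted p under 0.01 with quantile normalization. CDKB1 had 12.7, 21.4 and 20.4 TPM in NaCl, 6.22, 5.86 and 3.02 TPM in mannitol and 33.6 to 63.7 TPM in control 0 h, so that both osmolytes were below the untreated libraries. Of 11 actin, tubulin and motor genes 2 were higher and 2 lower. Cofilin (Cre07.g339050), which severs actin filaments, was higher at 1.81 ± 0.27 (SE), and a kinesin (Cre02.g073750) was lower at -1.31 ± 0.28 (SE).

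**Figure D4:**
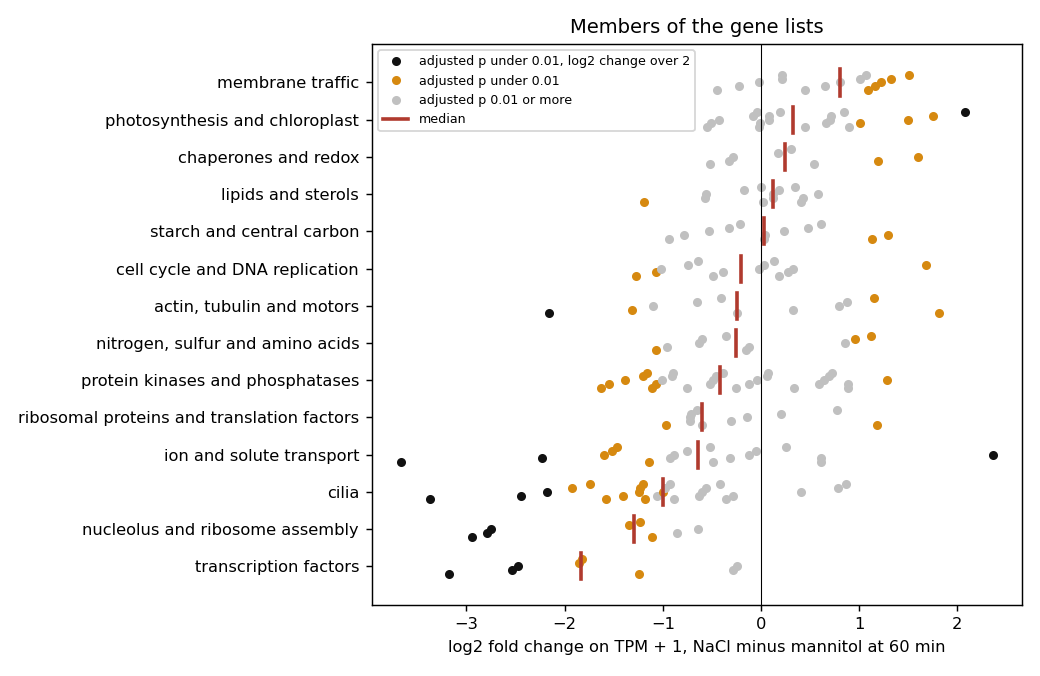
Log2 fold change (NaCl minus mannitol at 60 min, on TPM + 1) of every tested member of the 14 gene lists, ordered by the list median (bars). All 8 members of the transcription factor and of the nucleolus lists lie below 0, with medians of -1.84 and -1.29, while membrane traffic has the highest median, 0.80.

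Other genes that the study's text names are given here, and most of these did not pass the test. The same holds for the tested transcripts as a whole, of which 3135 of 13651 had an adjusted p under 0.01 in limma. AP2, SBE, NAK1, NAP57 and the MYB gene Cre14.g609350, which the study also names, passed and are given above, where NHX did not. The genes whose tagged proteins the study imaged had log2 fold changes of 0.21 ± 0.30 for REM (Cre16.g661700), of 0.61 ± 0.27 for STA2 (Cre17.g721500) and of -0.29 ± 0.26 (SE) for CAH6 (Cre12.g485050), with adjusted p values of 0.617, 0.0786 and 0.416. INP5 (Cre12.g530050), of an inositol phosphatase family, had 13.8, 16.1 and 15.9 TPM in NaCl and 22.0, 16.7 and 14.1 TPM in mannitol, so that the groups overlapped. KIN7 (-0.66), LEO1 (-0.51), OSMO13 (-0.27), MAPKK (-0.89) and PAT (1.07) did not pass the threshold of 0.01 either. SDD (Cre05.g242100) was lower at -1.03 ± 0.28 and PRF (Cre10.g427250) higher at 1.15 ± 0.33 (SE, adjusted p = 0.00983), but PRF did not pass after scaling (adjusted p = 0.0323).

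Untreated cells place the differences. Both osmolytes were compared with the same 5 control 0 h libraries, so the values stand side by side and were not tested against each other. The called transcripts were chosen by the contrast of these same NaCl and mannitol libraries. For those lower in NaCl this by itself favours mannitol above and NaCl below control 0 h, and the reverse for those higher. The counts beside the shares of all transcripts are thus a description and not separate evidence. For the 484 transcripts lower in NaCl, the median of the mean TPM was 4.70 in control 0 h, 1.61 in NaCl and 13.9 in mannitol. Every mannitol library was above every control library in 333 of the 484, as in 12.8% of all tested transcripts, and every NaCl library was below every control library in 282, as in 41.4% of all. In the fits against control 0 h, 166 of the 484 were called higher in mannitol, where 2.85% of all transcripts were, and 94 were called lower in NaCl, where 7.62% were.

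For the 114 transcripts higher in NaCl, the median was 22.7 TPM in control 0 h, 51.5 TPM in NaCl and 9.35 TPM in mannitol. Every NaCl library was above every control library in 54 of them, as in 9.33% of all tested transcripts, and every mannitol library was below every control library in 68, as in 34.9% of all. In the fits, 12 of the 114 were called higher in NaCl (0.908% of all transcripts) and 31 were called lower in mannitol (3.55%), which became 30 and 16 after scaling. For the 484, scaling gave 264 called higher in mannitol and 65 called lower in NaCl. The sizes against control depended on the scale. The median of the 484 was 1.58 for mannitol and -0.94 for NaCl as deposited, and 2.13 and -0.51 after scaling, and that of the 114 was -1.50 and 0.77 as deposited and -0.92 and 1.47 after scaling.

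More transcripts were called between the osmolytes at 60 min than at the other 5 times, and most of those called at 15 min had the opposite sign at 60 min. With the same test, 66 transcripts (0.483%) were called at 15 min and 192 (1.41%) at 30 min. Later there were 57 calls (0.418%) at 4 h, 56 (0.410%) at 6 h and 238 (1.74%) at 24 h. At 15 min 60 of the 66 (0.440% of those tested) were higher in NaCl. Of those 66, 63 had the opposite sign at 60 min, and 27 were called at 60 min in the opposite direction against 1 in the same direction. By contrast 64 of the 66 had the same sign at 30 min and 58 at 4 h. After scaling 78 of 84 transcripts called at 15 min had the opposite sign at 60 min.

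Of the 27 transcripts called both ways, 25 were higher in NaCl at 15 min and lower at 60 min, and 1 is annotated, AP2. AP2 had 33.6, 35.6 and 48.5 TPM at 15 min of NaCl against 5.02, 5.18 and 6.07 TPM at 15 min of mannitol. At 60 min the levels stood at 4.43 ± 1.44 TPM in NaCl and 51.3 ± 24.0 TPM in mannitol (SD, n = 3), so that each osmolyte was high at a time when the other was near the untreated level.

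The transcripts g5380, Cre07.g355850 and Cre01.g053000 were also among the 27. For g5380 the means in NaCl were 295, 452, 38.7, 309, 165 and 226 TPM at 15, 30 and 60 min and 4, 6 and 24 h, and those in mannitol were 52.8, 125, 706, 40.1, 27 and 18.5 TPM. It was higher in NaCl at each time except 60 min. For Cre07.g355850 the means in NaCl were 677, 904, 159.7, 252, 247 and 240.1 TPM, and those in mannitol were 70.2, 450.4, 1901, 78.6, 69.0 and 101 TPM, with the same exception.

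Testing the change of the contrast itself, 1321 transcripts (9.68%) differed between 60 and 30 min, 685 (5.02%) with a higher and 636 (4.66%) with a lower contrast at 60 min. Scaling turned this split to 244 and 1158, since the median contrast at 30 min was -0.58 as deposited and -0.13 after scaling. Between 60 min and 4 h 501 transcripts (3.67%) differed, 96 (0.703%) higher and 405 (2.97%) lower. Of the 484 transcripts lower in NaCl at 60 min, 288 were in the first set and 224 in the second, and of the 114 higher ones 89 and 50. These counts share the 60 min libraries with the rule that chose the 484 and 114 transcripts, so they describe them and are not separate evidence. The median contrast of the 484 was 0.47 at 15 min, -0.15 at 30 min, -2.39 at 60 min and -0.42 at 4 h, and that of the 114 was -0.38, -0.26, 2.2 and 0.25.

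For NAK1, THF1 and OAC the contrast was smaller at 30 min and at 4 h than at 60 min. For NAK1 the contrast was 0.46 at 30 min, -3.66 at 60 min and -0.56 at 4 h, and it differed from 60 min at both times, by -4.12 (adjusted p = 3.67e-07) and -3.10 (adjusted p = 7.23e-05). NAK1 had 64.4 ± 12.8 TPM in mannitol at 60 min and between 11.4 and 24.6 TPM on average at every other time of mannitol. THF1 and OAC had contrasts near 0 at 30 min (-0.17 and -0.23) and 4 h (-0.17 and -0.06).

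The nucleolar genes were lower in NaCl at 30 min as well in TPM as deposited, though not past the log2 fold change of 2. At that time the median contrast of all tested transcripts was -0.58, and -0.13 after scaling. The contrast of nucleolin was -1.77 at 30 min, -2.75 at 60 min and -0.98 at 4 h, that of NAP57 -1.68, -2.94 and -1.20, and that of NOP2 -1.96, -2.79 and -1.01. Their differences between 60 and 30 min were not called. Both osmolytes had their lowest mean nucleolin level at 60 min, 13.6 ± 2.04 TPM in NaCl and 101 ± 39.3 TPM in mannitol (SD, n = 3).

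**Figure D5:**
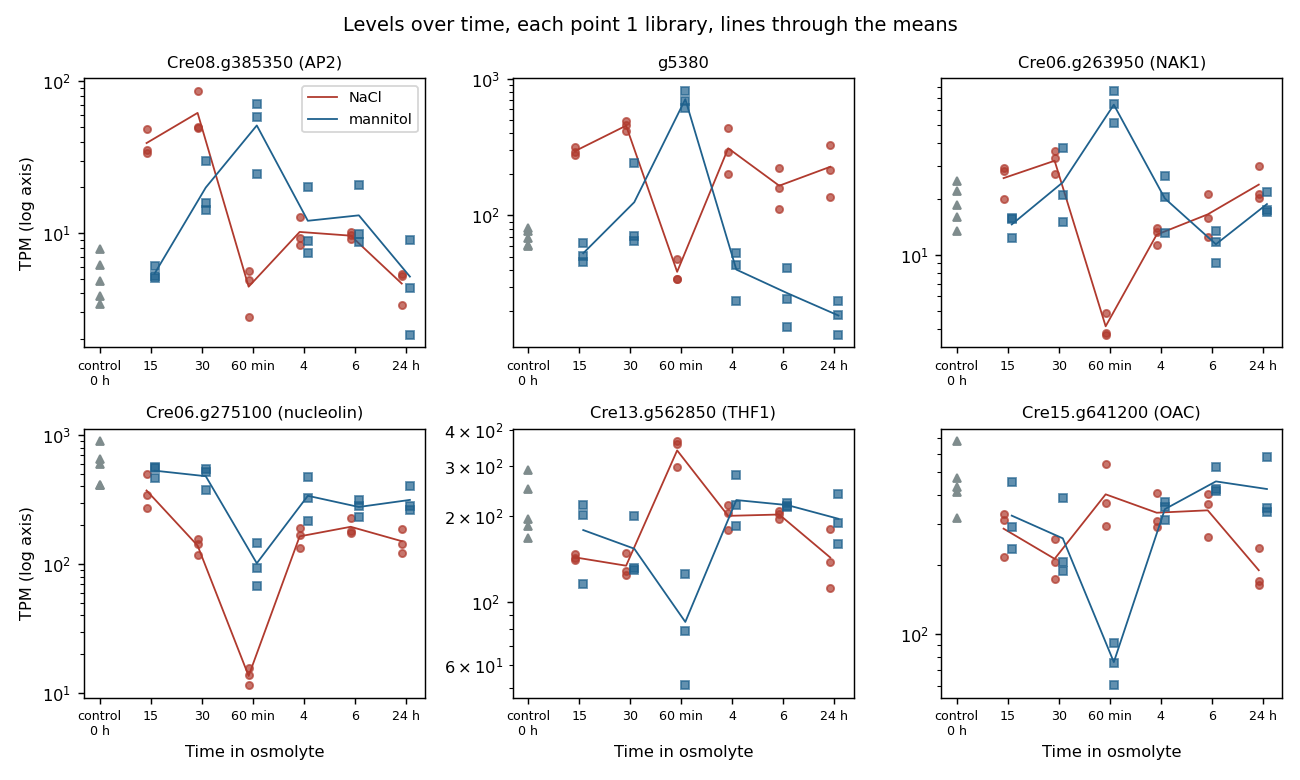
TPM (log axis) over time in NaCl (circles) and mannitol (squares), each point 1 library, with lines through the means of 3 libraries and control 0 h as triangles. AP2 and g5380 cross between 30 and 60 min, NAK1 is farthest apart at 60 min (4.12 TPM in NaCl against 64.4 TPM in mannitol), nucleolin is lowest at 60 min in both osmolytes, and THF1 and OAC part at 60 min with mannitol low.

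Of the 75 transcripts that averaged 2000 TPM or more over all libraries, 63 had a log2 fold change below 0 at 60 min, with a median of -0.67, and -0.62 after scaling. By limma 0 of the 75 were called, and 0 were lower and 1 was higher at an adjusted p under 0.01. Their median contrast was -0.58 at 30 min and 0.07 at 4 h. This level was set after the values were seen, and the part of g15293.t1 in it was not tested.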

How the data were processed

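RNA was extracted from CC-4533 cells, mRNA libraries were sequenced on a NextSeq, and the reads were aligned with BWA to genome version 5.6 by the authors. The deposited values are TPM, 1 column per library; how the authors calculated TPM from the alignments, and the read depth, are not given in the sources used here. All 45 columns were matched to samples by the library name in the labels, and 1 line without a transcript name was left out. The values were tested as log2(TPM + 1) with limma 3.58.1 (R 4.3.3; trended and robust variances), each comparison fitted on its own libraries alone, for transcripts that reached a TPM of 1 in 3 libraries. The p-values were adjusted by Benjamini-Hochberg, and a call needed both a log2 fold change past 2 and an adjusted p below 0.01. The same fit on median-ratio scaled TPM is given beside it, since a few transcripts take a large share of TPM. The steps were tested on simulated data. Figures were drawn with Python 3.11.15 and matplotlib 3.10.9.

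The genes named are the 5 largest robust calls in each direction, the 10 largest in each direction with a name in the study's annotation, genes the study's text names and up to 3 members of each of the 14 lists; robust means called with the same sign and without overlap on both scales. Further members of the lists, such as TUA1 and TOR, were added with their values known, as was the called kinase gene Cre14.g628200, which is in no list. The comparison, lists and rules were chosen with earlier results of these data known. Alternatives were 1 fit over all 14 groups, a pseudocount of 0.1, other filters, other scalings, a log2 fold change over 1, a replicate block, the libraries numbered under 49 alone, and leaving out each replicate. Gene roles come from the study's annotation and general knowledge, and no sequences were used here.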

Additional observations from a re-analysis of the deposited data

Results flagged for a closer look

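The contrast between NaCl and mannitol at 60 min differed from that at 30 min, by limma's interaction test on both scales, for 15 of the named genes. The differences (60 min contrast minus 30 min contrast, log2) were positive for Cre02.g094250 (4.41), Cre06.g282800 (3.95), Cre13.g591400 (4.26), Cre07.g353450 (3.27) and CGL78 (4.13). They were negative for the annotated genes FAP33 (-2.42), RWP-RK (-2.95), AP2 (-4.78), FAP215 (-2.45) and NAK1 (-4.12). Among unannotated transcripts they were negative for g11602 (-3.85), Cre02.g145850 (-2.98), Cre03.g152600 (-3.18), g5380 (-6.28) and g16717 (-4.78).

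The contrast at 60 min also differed from that at 4 h for 15 of the named genes. The differences (60 min contrast minus 4 h contrast, log2) were positive for Cre02.g094250 (3.42), Cre06.g282800 (3.14), Cre13.g591400 (3.14), Cre07.g353450 (2.88), CGL78 (2.43), OAC (2.42) and THF1 (2.24). They were negative for the myosin heavy chain Cre13.g563800 (-2.24), RWP-RK (-2.40), AP2 (-3.05), NAK1 (-3.10), g11602 (-3.72), Cre03.g152600 (-3.71), g5380 (-7.08) and g16717 (-3.90). All these genes were chosen for a large contrast at 60 min, which by itself favours a smaller contrast at other times.

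TLP2 stood at 4.55 TPM in replicate 5 of control 0 h, far below the other 4 libraries of that group. It was 1 of 26 genes checked in this way, and chance gives such a gap in about 1 of 20 groups.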

How the results depend on the processing

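A pseudocount of 0.1 gave 1376 calls (261 higher, 1115 lower in NaCl) and a median log2 fold change of -0.21, and a log2 fold change over 1 gave 3032 calls (1026 higher, 2006 lower). Transcripts with a mean of 5 TPM or more gave 363 calls, 264 of them lower, and a median of -0.022. The median was 0.037 with quantile normalization, where 131 were higher and 351 lower, and 0.055 in TPM without g15293.t1 and g15294.t1, with 287 higher. The libraries numbered under 49 alone gave 74 higher and a median of -0.23. Scaling gave 244 higher and 1158 lower for 60 against 30 min, 300 calls at 30 min and 35 at 6 h, 411 higher and 423 lower for NaCl against control 0 h, and 848 higher and 100 lower for mannitol. Leaving out 1 replicate gave 492 (without mannitol replicate 2) to 742 calls, 74 to 164 higher and 369 to 578 lower, and up to 837 calls, 207 higher and 630 lower where scaling was also applied, with medians of -0.20 to -0.036. For the difference from 30 min it gave 1018 to 1710 calls, 403 to 944 higher and 511 to 766 lower, and for that from 4 h 410 to 559 calls, 61 to 147 higher and 310 to 462 lower.

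With the replicate number as a block the counts were 598 as deposited and 698 after scaling, 3776 against 3135 transcripts passed at any fold change, and the differences from 30 min and 4 h gave 1346 and 569 calls. The numbers were not taken as pairs in the main fit. The deviations of same-numbered libraries from their group means correlated at 0.077, 0.118 and 0.274. NaCl replicate 2 correlated slightly better with mannitol replicate 1 (0.121). NaCl replicate 3, however, was at -0.159 and -0.153 with mannitol replicates 1 and 2. Mannitol replicate 3 was at -0.130 and -0.210 with NaCl replicates 1 and 2. Whether replicate 3 of both osmolytes shares a batch was not tested. Of 697 alternative values for the named robust calls 686 kept direction and call, 11 lost the call and 0 reversed. Some of the 686 could not have lost the call. A log2 fold change over 1 and an adjusted p under 0.05 only loosen the rule, and a call after median-ratio scaling is part of the definition of robust. INP5 reversed in TPM without g15293.t1 and g15294.t1 (0.14) and without mannitol replicate 1 after scaling (0.041), and CAH6 in the former (0.040); neither passed the test. The cause was not tested. With 3 libraries per group and no read depth, low transcripts are the least certain, and a value listed at 0 cannot be given a limit.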

Other observations

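Genes called lower in NaCl at 60 min often lay beside each other. In the gene order of the RefSeq annotation of assembly version 5.5, 54 of 348 matched genes called lower (15.5%) had a directly adjacent gene that was also called lower, while 497 of all 9892 matched tested genes (5.02%) had such a neighbour. For genes called higher it was 4 of 85 (4.71%) against 121 of 9892 (1.22%). Whether neighbours share reads was not tested.

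Counts of shared sign between other times give a background for the change of sign at 60 min. Of the 192 transcripts called at 30 min, 185 had the same sign at 15 min and 174 at 4 h, but 129 at 60 min. After scaling 300 were called at 30 min, of which 113 had the same sign at 60 min and 187 the opposite one. Of the 57 called at 4 h, 57 had the same sign at 6 h and 33 at 60 min. The times of 1 replicate came from the same flask, and the values are a description. Whether the order of the times or the labels bear on this was not tested.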
